A study of Homo sapiens with 8 samples.

Results

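The regions described here are accessible promoters of long noncoding RNA genes that lie away from any protein-coding promoter, in HEK293T cells. They were chosen by position: the 8 peak lists of the study were merged, and a region was kept if its midpoint lay within 1000 bp of the 5′ end (TSS) of a GENCODE lncRNA gene and more than 2000 bp from every protein-coding TSS. This gave 2487 member regions out of 96872 merged regions, at 2649 lncRNA genes. For comparison, 14657 merged regions had their midpoint within 1000 bp of a protein-coding TSS (coding promoter regions), and 78053 lay more than 2000 bp from every protein-coding TSS and more than 1000 bp from every lncRNA TSS (distal regions).

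The assay was ATAC-seq, which uses the Tn5 transposase to insert sequencing adapters into accessible DNA, and the cells were HEK293T, an established line from human embryonic kidney that expresses SV40 large T antigen. Of the 8 libraries, 4 came from cells carrying an H2A(E92K) lentivector, called E92K below, and 4 from cells carrying a lentivector for unmutated H2A. In E92K, lysine takes the place of a glutamate in the acidic patch, a charged face of the nucleosome to which many chromatin factors bind. The labels give no further treatment in either group, speak both of transfection and of a lentivector, and do not say how much of the cells' H2A came from the vector or whether the replicates are separate cultures. The p-values below therefore reflect the spread among these 8 samples alone, and that spread may be technical. The E92K lists held 58174, 61850, 57431 and 55527 peaks in replicates 1 to 4, and the H2A lists 59759, 57439, 58937 and 62044. The background behind the peak calls, a measure of relative depth, was 2.23 to 2.68 fragments in E92K libraries and 2.52 to 2.93 in H2A libraries. Of 10 genes chosen as HEK293T markers, all had a peak at their promoter in all 8 libraries, whereas none of 4 endothelial and none of 5 hematopoietic markers did (PTPRC had one in 1 E92K library). Some markers of other cell types were also open in all 8 libraries, namely COL1A1 and COL1A2 of 5 fibroblast markers, TTR of 4 hepatocyte markers and PMEL of 3 melanocyte markers.

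Long noncoding RNAs are transcripts without a long conserved reading frame that are made by RNA polymerase II, and many are spliced and polyadenylated like messenger RNAs. Some act on chromatin or in nuclear bodies, some carry small nucleolar RNAs or microRNAs in their introns or exons, and for many no role is known. Their promoters, like those of coding genes, come as CpG islands, which tend to be open in many tissues, and as CpG-poor promoters, which tend to be open in few.

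The range of base composition among the members is shown by 200 bases of hg38 at the strongest summit of 5 of them, written 5′ to 3′ on the strand of the lncRNA gene, with each CpG dinucleotide in capitals. DANCR, a snoRNA host gene (chr4:52712284-52712483, plus strand), and MIR210HG, the host of a hypoxia-induced microRNA (chr11:568470-568669, minus strand), stand for CpG-rich promoters, with 20 and 28 CpGs. FIRRE, an X-linked lncRNA that takes part in nuclear organisation (chrX:131830708-131830907, minus strand), was among the strongest members and had 4 CpGs. LINC01074 (chr13:62320271-62320470, plus strand) had the lowest GC content among members open in all 8 libraries. LINC02233 (chr4:159776895-159777094, minus strand) had a peak in all 4 E92K libraries and in no H2A library.
DANCR: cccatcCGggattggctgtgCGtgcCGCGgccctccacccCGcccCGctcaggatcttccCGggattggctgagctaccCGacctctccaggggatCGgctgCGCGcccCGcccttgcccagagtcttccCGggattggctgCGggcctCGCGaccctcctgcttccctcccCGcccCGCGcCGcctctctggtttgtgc
MIR210HG: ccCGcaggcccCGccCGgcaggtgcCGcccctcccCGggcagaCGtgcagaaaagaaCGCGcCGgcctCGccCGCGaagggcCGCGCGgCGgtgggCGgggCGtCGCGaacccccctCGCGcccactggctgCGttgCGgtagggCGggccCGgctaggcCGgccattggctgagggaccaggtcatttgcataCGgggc
FIRRE: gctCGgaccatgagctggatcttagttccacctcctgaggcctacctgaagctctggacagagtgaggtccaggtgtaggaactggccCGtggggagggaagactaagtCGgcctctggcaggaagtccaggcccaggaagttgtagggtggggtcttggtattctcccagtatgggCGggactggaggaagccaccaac
LINC01074: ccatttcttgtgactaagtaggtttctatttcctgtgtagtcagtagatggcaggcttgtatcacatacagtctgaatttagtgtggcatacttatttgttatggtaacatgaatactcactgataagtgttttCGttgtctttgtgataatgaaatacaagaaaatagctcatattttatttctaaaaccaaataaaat
LINC02233: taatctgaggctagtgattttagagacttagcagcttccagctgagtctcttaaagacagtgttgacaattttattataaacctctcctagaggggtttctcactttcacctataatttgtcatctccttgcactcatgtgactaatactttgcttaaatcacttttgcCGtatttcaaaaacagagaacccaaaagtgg
The DANCR stretch held 3 CCAAT and 3 GGGCGG motifs on either strand, the MIR210HG stretch held 1 and 4, and the LINC01074 and LINC02233 stretches held none of these.

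Most lncRNA promoters away from coding promoters were either open in every library or seen in very few. A peak was present in all 8 libraries at 1417 members (57%), in 2 to 7 libraries at 679 (27.3%) and in a single library at 391 (15.7%). Presence in all 8 libraries was thus less common than at coding promoter regions (86.3%) and more common than at distal regions (28.4%). For all merged regions it was 38.1%. The same order held for regions seen in 1 library only, which made up 4.3% of coding promoter regions and 31.1% of distal regions. Absence from a list means that no peak was called in that library and is no evidence of closed chromatin.

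**Figure D1:**
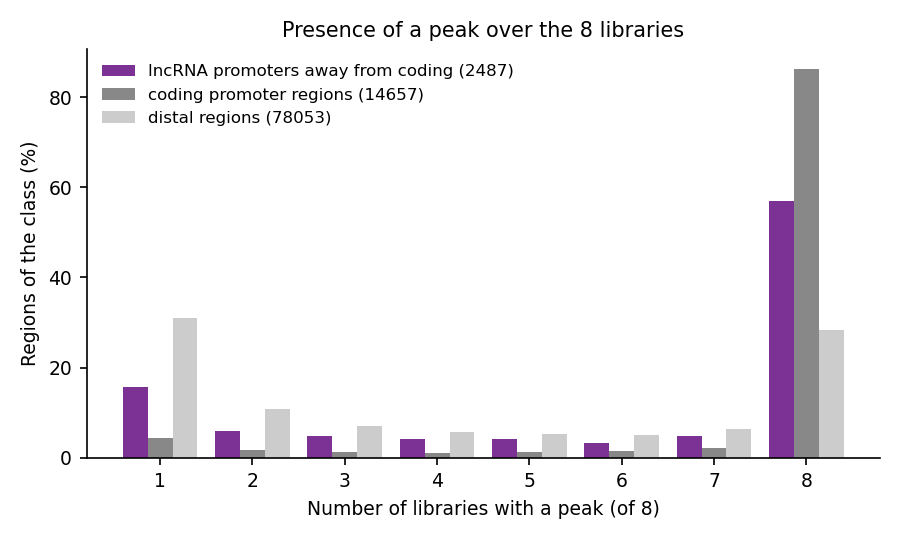
Share of regions (%, vertical axis) with a peak in 1 to 8 of the 8 libraries (horizontal axis), for lncRNA promoters away from coding promoters (purple), coding promoter regions (dark grey) and distal regions (light grey). At 8 libraries the purple bar stands at 57%, between 86.3% for coding promoter regions and 28.4% for distal regions.

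In width, base composition and strength the members again lay between coding promoter and distal regions. Their median width was 807 bp (interquartile range 504 to 1134), beside 1220 bp at coding promoter regions and 568 bp at distal regions. A merged region is the union of its peaks, so its width grows with the number of libraries that have one: members in all 8 libraries had a median of 1037 bp and members in 1 library 309 bp. Median GC content was 53.4% (46.0% to 60.2%), beside 61.9% and 45.0%. Strength was taken as the percentile of a peak's deposited −log10 p within its own list, taken as the median over the libraries with a peak. Members had a median of 48.1 on that scale, coding promoter regions 84.2 and distal regions 22.2. In each library alone, members with a peak had a median percentile between 63.6 and 65.9, below the 85.2 to 86.5 of coding promoter regions and above the 39.6 to 40.3 of distal regions in all 8.

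The members fell into a CpG-rich and a CpG-poor set that differed in how regularly they were open. A region was called CpG-rich at a GC content of at least 50% and an observed over expected CpG ratio of at least 0.6, which 691 members (27.8%) met, beside 76.5% of coding promoter regions and 2.7% of distal regions. CpG-rich members had a peak in all 8 libraries in 84.9% of cases, a median width of 1042 bp and a median percentile of 79.3. The 1796 CpG-poor members had 46.2%, 723 bp and 35.2. Among members open in all 8 libraries, MIR210HG (78.4% GC) and DGCR5 (77.8%), a lncRNA of the DiGeorge syndrome region, were near the top in GC content, and LINC01074 (29.9%) and PLSCR5-AS1 (30.5%) were at the bottom. LINC01074 still reached a median percentile of 63.5 and had 51, 52, 35 and 48 fragments at the summit in E92K libraries, against 55, 62, 43 and 57 in H2A libraries. DGCR5, at the other end, had a median percentile of 55.2, with 35, 34, 40 and 21 fragments in E92K libraries and 34, 27, 41 and 40 in H2A libraries. For both genes the groups overlapped, and the AT-rich LINC01074 had the higher median percentile of the pair.

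**Figure D2:**
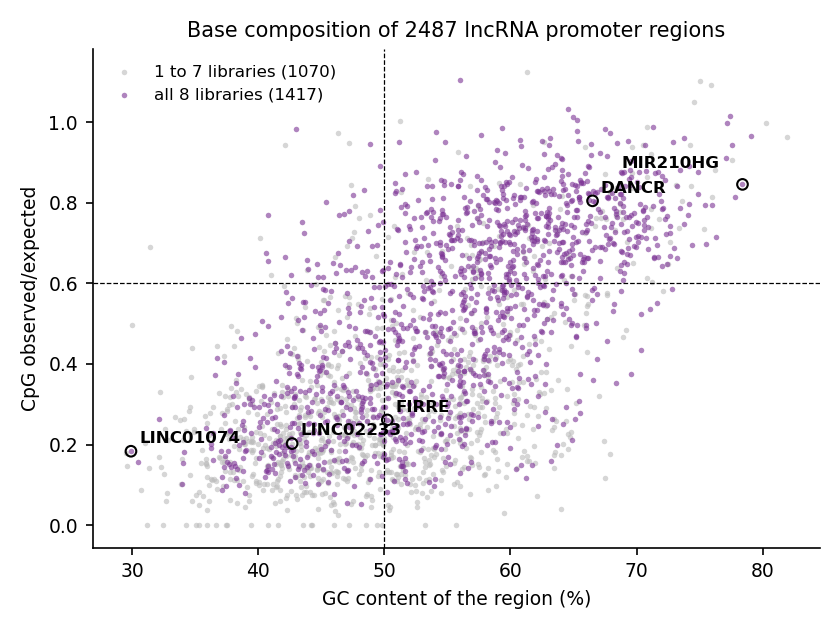
GC content (%, horizontal axis) and observed over expected CpG ratio (vertical axis) of each of the 2487 members, in purple where a peak was present in all 8 libraries (1417) and in grey elsewhere (1070). Dashed lines mark a GC content of 50% and a ratio of 0.6, and the 691 regions beyond both are the CpG-rich ones, most of them purple.

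The summits were described relative to the annotated start sites, near which the rule itself places the regions. The strongest summit had a median offset of -13 bp from the nearest lncRNA TSS (negative is upstream) and a median distance of 226 bp, and 28.4% of members had it within 100 bp and 52.0% within 250 bp. Upstream and downstream positions were about equally common, with 1294 members (52.0%) upstream. The distance was smaller at members open in all 8 libraries, with a median of 174 bp, than at members seen in 1 library, with 352 bp. CpG-rich members had a median of 147 bp and CpG-poor members 280 bp. The rule places the midpoint of the region, not the summit, within 1000 bp, so a small number of summits lay further away.

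**Figure D3:**
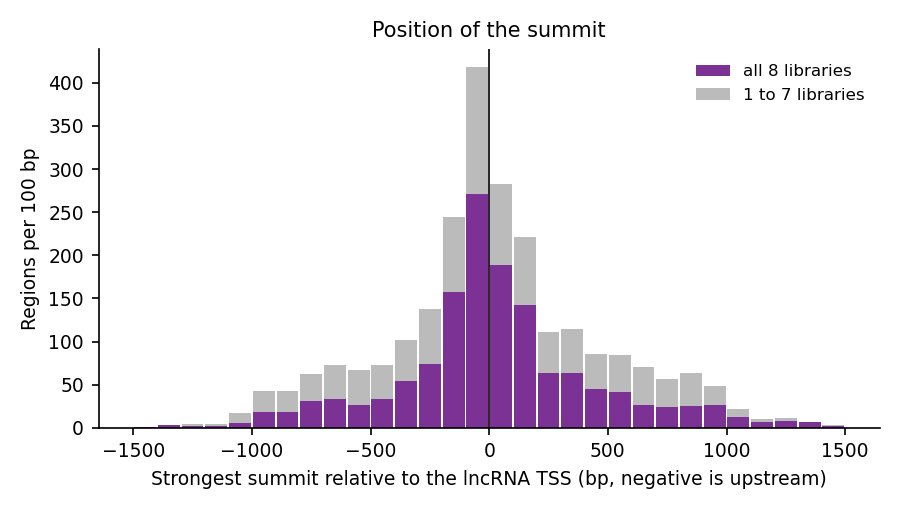
Number of members per 100 bp (vertical axis) by the position of the strongest summit relative to the nearest lncRNA TSS in bp (horizontal axis, negative is upstream), with members open in all 8 libraries in purple and the others in grey above them. The tallest bar, just upstream of the TSS, holds 271 members open in all 8 libraries and 147 others.

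The members' genes differed by kind of name. Most members, 1621, lay at genes known only by an Ensembl identifier, and 53.7% of these were open in all 8 libraries. For the 434 members at LINC genes the share was 58.5%, and for the 217 at antisense genes (names ending in -AS and a number) 60.8%. Host genes of small RNAs were counted here by the name of the nearest lncRNA gene (SNHG or MIR symbols). The host gene lists below also hold other genes, such as DANCR, and so give other counts. Members at host genes by name were the most regular, with 32 of 38 (84.2%) open in all 8 libraries. They had a median percentile of 81.2, and 60.5% were CpG-rich. Genes with another established symbol followed, with 79.0% of 157. Members at intronic or overlapping transcripts (-IT and -OT) were the least regular, with 5 of 20. Seen from the genes, 14921 annotated lncRNA genes had their TSS more than 2000 bp from every coding TSS, of which 2635 (17.7%) had a member and 1592 (10.7%) had one in all 8 libraries. The share with a member was 48.9% of 92 small RNA host genes and 30.0% of 611 genes with another symbol. It was 21.8% of 1032 antisense genes, 21.2% of 2179 LINC genes and 15.6% of 10861 genes with an identifier only. A gene without a member may still have a peak at a promoter, since the rule takes only the 5′ end of the gene and the midpoint of the region. With every lncRNA transcript the members rose from 2487 to 3246.

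Regularity also varied with position relative to coding genes and to other lncRNAs. Of the 1804 intergenic members (72.5% of the total), 60.9% were open in every library, and of the 599 members in introns of coding genes 45.2% were. Where the midpoint of the region lay inside a coding gene, that gene was mostly on the strand opposite to the lncRNA, at 512 members. It was on the same strand at 157. At 175 members lncRNA genes started on both strands, and 86.9% of these were open in all 8 libraries, beside 54.5% of the 2290 members with a single lncRNA gene. The share varied less with the distance to the nearest coding TSS and was 56.6% at 2 to 5 kb, 59.6% at 5 to 20 kb, 58.9% at 20 to 100 kb and 51.5% beyond 100 kb. At the edge of the rule, 42.3% of the 104 members in the outermost 100 bp of the lncRNA window were open in all 8 libraries, and 46.7% of the 105 regions in the next 100 bp outside it. At the coding side the shares were 56.1% of 41 members up to 500 bp beyond the 2000 bp limit and 55.6% of 36 regions left out within 500 bp of it.

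The strongest members, those with the highest lowest percentile over the 8 libraries, included PCGF3-AS1, antisense to the gene of a Polycomb ring finger protein, LINC01003 and FIRRE. FIRRE had 268, 302, 265 and 292 fragments at the summit in E92K libraries, against 317, 296, 321 and 383 in H2A libraries. These counts grow with depth, and the groups overlapped, since 1 E92K library exceeded the lowest H2A library. The percentile of FIRRE within its own list did not overlap, at 99.1, 99.2, 98.7 and 99.4 in E92K libraries and 99.7, 99.6, 99.7 and 99.6 in H2A libraries. The authors' fold enrichment at its summit did not overlap either, at 10.8, 11.0, 10.1 and 11.3 in E92K libraries and 12.4, 12.4, 12.6 and 12.6 in H2A libraries. Percentiles come from lists of different lengths, and the share of all regions without overlap in percentile or fold was not computed. FIRRE was also only 1 of many named members, so this is a description that was not tested. LINC01003 had 367, 434, 343 and 395 fragments in E92K libraries and 370, 354, 376 and 422 in H2A libraries. Its values interleaved between the groups, and its covered length, the base pairs of the region under a peak, was also alike, at 1677 ± 66.9 bp in E92K and 1720 ± 68.0 bp in H2A libraries (SD, n = 4 each). Others were known by identifier only, for example ENSG00000289878 (chr13:94548824-94550289), which was at or above the 99.9th percentile in all 8 libraries.

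The lists of lncRNAs with a known role differed in how many genes had a member. All 7 nuclear or abundant lncRNAs and 17 of 22 snoRNA hosts had one, against 3 of 18 developmental and 1 of 12 imprinted genes. Of all lncRNA genes away from coding TSSs, 17.7% had a member. The lists were chosen with earlier results of these data known, so these shares are a description and no independent comparison. All 7 nuclear or abundant lncRNAs with a TSS away from coding genes had a member open in all 8 libraries. MALAT1, an abundant RNA of nuclear speckles (chr11:65496910-65499089, 2180 bp), had a median percentile of 88.9, and NEAT1, the scaffold of paraspeckles (chr11:65421299-65423244, 1946 bp), one of 55.2. NORAD, which binds Pumilio proteins, stood at 80.7, MIAT at 88.6, FIRRE at 99.5 and PVT1, next to MYC, at 69.9. MALAT1 had 159, 173, 194 and 170 fragments at the summit in E92K libraries, against 151, 138, 135 and 166 in H2A libraries. The E92K values were mostly the higher ones, but the lowest of them lay under the highest H2A value. Its percentile did not overlap, at 91.6, 89.0, 94.9 and 91.1 in E92K lists and 88.8, 87.3, 86.0 and 87.9 in H2A lists. This was the opposite direction to FIRRE, likewise without a test. The authors' fold enrichment at its summit did overlap, at 6.74 to 8.99 in E92K libraries and 6.63 to 7.16 in H2A libraries. MALAT1, too, was only 1 of many named members. Percentiles without overlap also occurred at other named members, among them PCAT7, MIR924HG and MINCR, which were higher in H2A lists. How many members had this in either direction was not counted, so FIRRE and MALAT1 do not stand out by it. NEAT1 had 76, 93, 88 and 73 fragments in E92K libraries and 94, 76, 93 and 105 in H2A libraries, and the groups overlapped.

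Host genes of snoRNAs, the small RNAs that guide chemical modification of ribosomal RNA, were the most uniform group. Of 22 such genes with a TSS away from coding genes, 17 had a member, all 17 were open in all 8 libraries, and all 17 were CpG-rich, with a median percentile of 91.7. DANCR, SNHG15 (98.7) and SNHG5 (96.1) were the strongest. DANCR, whose region is shared with the start of LINC01618, had 289, 322, 271 and 257 fragments in E92K libraries and 295, 272, 287 and 401 in H2A libraries, with overlap between the groups. CYTOR, SNHG12, SNHG14, SNHG20 and SNHG27 had no member, which does not show that their promoters lacked a peak. Host genes of microRNAs were more mixed: 24 of 44 had a member, open in all 8 libraries at 20. MIR17HG, the host of an oncogenic microRNA cluster (chr13:91346949-91349367, 2419 bp, 71.3% GC), was the strongest at 99.1, followed by MIR762HG (97.5) and MIRLET7A1HG (97.1), the host of let-7 family members. MIR17HG varied strongly between libraries of 1 group, with 421, 494, 326 and 287 fragments in E92K libraries and 341, 412, 423 and 534 in H2A libraries. MIR100HG had a peak in 3 E92K and 3 H2A libraries, MIR202HG and MIR193BHG in 2 E92K and 3 H2A libraries, and MIR23AHG in 1 E92K library and no H2A library. The 20 host genes without a member included MIR155HG, MIR124-1HG and MIR133A1HG, whereas MIR1-1HG and MIR9-1HG had a member open in all 8 libraries.

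Imprinted lncRNAs had 1 member among 12 genes: KCNQ1OT1, the antisense RNA that silences neighbours on the paternal chromosome, was open in all 8 libraries at a median percentile of 90.2, and H19 and MEG3 had no member. In the HOX clusters 11 of 18 lncRNAs start within 2000 bp of a coding TSS and so fall outside the rule. Of the 7 others HOXD-AS2 alone had a member, open in all 8 libraries. Developmental lncRNAs had a member at 3 of 18 genes, namely SOX1-OT and TBX2-AS1 in all 8 libraries and PAX8-AS1 in 1 E92K library. The SOX1-OT peaks were weak, at a median percentile of 15.3, with the strongest summit 1019 bp downstream of the TSS. The TBX2-AS1 region is shared with LINC02875, whose TSS is the nearer one. Of 6 p53-responsive genes, LNCTAM34A, PVT1 and NEAT1 had a member in all 8 libraries, and MIR34AHG, PINCR and PURPL had none. Cancer-associated lncRNAs had a member at 15 of 29 genes and in all 8 libraries at 10, among them DLEU1, HIF1A-AS3 and PCAT6. LUCAT1 and CASC9 had a peak in 1 H2A library each, SAMMSON in 1 library of each group, and HEIH, first described in liver cancer, in 4 E92K libraries and 1 H2A library. The lists overlap, since PVT1, NEAT1 and KCNQ1OT1 stand in more than 1, and no list gene had a peak in all libraries of 1 group and none of the other.

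Sequence motifs were counted on both strands of the 300 bp around each member's strongest summit, with overlapping matches of different motifs each counted. The GC box (GGGCGG) occurred in 34.3% of members, beside 68.9% of coding promoter regions, 9.4% of distal regions and 19.4% of all regions. It was present in 72.4% of CpG-rich members and 19.6% of CpG-poor members. The ETS site (CCGGAAG) followed the same order, with 6.3% of members, 15.5%, 1.5% and 3.7%. TATAAA went the other way, with 9.6% of members, 4.0% of coding promoter regions, 18.7% of distal regions and 16.1% of all regions, and so did AGATAA, the GATA site, with 10.0%, 3.8%, 17.9% and 15.4%. CCAAT was about as common everywhere, in 30.5% of members and 33.0% of all regions. The CTCF core, searched by its consensus, was in 5.8% of members, 1.2% of coding promoter regions and 6.1% of distal regions. By presence it was in 7.1% of members open in all 8 libraries and 0.8% of members seen in 1 library. TGACTCA, the AP-1 site, was in 6.7% of members and 6.9% of all regions, and CACGTG, the E-box, in 6.0% and 4.7%. A match is a description of the letters, not a bound site.

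Between the groups, the total number of members with a peak differed by less than the spread between libraries. The E92K libraries had 1820, 1907, 1807 and 1758 members with a peak, against 1849, 1803, 1835 and 1878 in the H2A libraries. Both the highest and the lowest value were E92K libraries, and the means were 1823 ± 62.0 and 1841 ± 31.2 (SD, n = 4 each). As a share of all regions with a peak in the library the members made up 3.18 ± 0.048% in E92K and 3.14 ± 0.053% in H2A libraries. CpG-rich members with a peak numbered 639.8 ± 9.54 in E92K and 638.8 ± 4.99 in H2A libraries, and CpG-poor members, which varied more between libraries, 1183 ± 53.3 in E92K and 1203 ± 27.1 in H2A libraries. Members in introns numbered 383.5 ± 18.9 in E92K and 399.8 ± 8.22 in H2A libraries, and members over exons 63.0 ± 2.94 in E92K and 67.3 ± 1.71 in H2A libraries. The difference over exons exceeded the SD of either group and was not tested. Many subsets of members were counted in this way, and the matching number for exons over all regions was not computed. The median covered length per member was 703, 719, 703 and 705 bp in E92K libraries and 717, 697, 707 and 713.5 bp in H2A libraries, again with overlap. Members whose peak was found in a single library numbered 36, 70, 37 and 37 in E92K libraries and 63, 45, 45 and 58 in H2A libraries. E92K replicate 2, the library with the most peaks of its group, had the highest number of all.

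**Figure D4:**
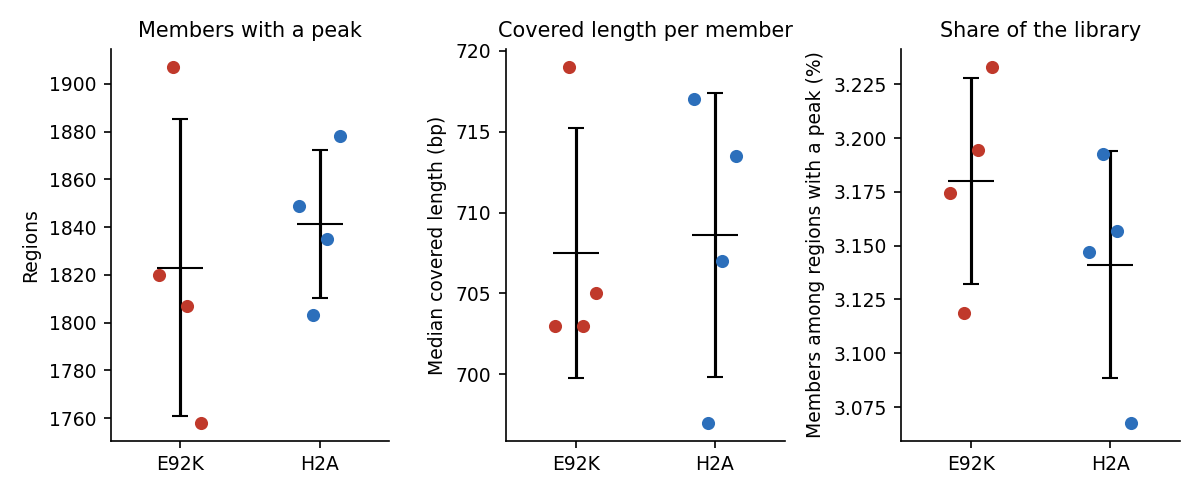
Each point is 1 library, E92K in red on the left and H2A in blue on the right of each panel, with the mean and SD (n = 4) in black. The panels show the number of members with a peak, the median covered length per member in bp and the members' share of all regions with a peak (%), and in each the groups overlap; the vertical axes do not start at 0.

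Complete separation of the groups was rare. A peak was present in all 4 E92K libraries and in no H2A library at 6 members (0.241%), where 0.139% of all merged regions were so placed. The reverse held for 2 members (0.0804%), beside 0.184% of all merged regions. Fisher's exact test, two-sided with Benjamini-Hochberg adjustment over all 96872 regions, called 0 members and 0% of all regions; these 8 members had an unadjusted p of 0.0286, the smallest that 4 against 4 libraries can give, as did 0.323% of all regions. With so few regions at that p, none could pass the adjustment. Members with equal numbers of E92K and H2A libraries were 1577 (63.4%), beside 47.5% of all regions. Most of these were present in all 8 libraries, as were 57% of members and 38.1% of all regions. The contrast largely restates that difference and does not make members more alike between the groups. With any 1 library left out the criterion is easier to meet, so the counts can only stay or rise, and they ranged from 6 to 10 for E92K and from 3 to 10 for H2A.

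All 8 separating members were CpG-poor, and 7 were intergenic, beside 72.2% and 72.5% of all members. Only 11.9% of members present in 2 to 7 libraries were CpG-rich, so these counts do not set the separating members apart. LINC02233 (chr4:159776607-159777475) was covered by peaks over 419, 808, 404 and 816 bp in the E92K libraries and had 12, 17, 14 and 12 fragments at the summit. These peaks were weak, with a median percentile of 21.9 among the peaks of their lists, and the strongest summit lay 833 bp downstream of the TSS. ENSG00000261924 (chr17:80970015-80970811) was covered over 646, 641, 468 and 635 bp and ENSG00000227150 (chr9:134551417-134552318) over 419, 562, 426 and 690 bp in the E92K libraries. A further 2 lay on chromosome 14 (chr14:20477056-20478155) and on chromosome 19 (chr19:30030010-30030500). Their nearest coding TSSs were those of PNP, 7.9 kb away, and URI1, 88 kb away. With the lncRNA TSS required within 500 bp instead of 1000 bp, 1 member separated the groups in this direction. In the H2A libraries, ENSG00000288810 (chr1:98048161-98048648) was covered over 386, 416, 377 and 362 bp, with 46, 45, 39 and 62 fragments at a summit 146 bp from the TSS. It was the strongest of the 8, at a median percentile of 61.4. ENSG00000287099 (chr4:2862008-2863099), in an intron of ADD1, was covered over 476, 447, 870 and 263 bp, with 24, 21, 23 and 24 fragments. Of the 8, only 2, ENSG00000261924 and ENSG00000288810, still separated the groups at a q-value of 1e-05 or less. LINC02233 was then present in 2 more E92K than H2A libraries, and ENSG00000287099 in equal numbers of both. With at least 50% of the region covered by peaks, 3 of the 8 separated the groups, and LINC02233 and ENSG00000287099 were not among them.

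**Figure D5:**
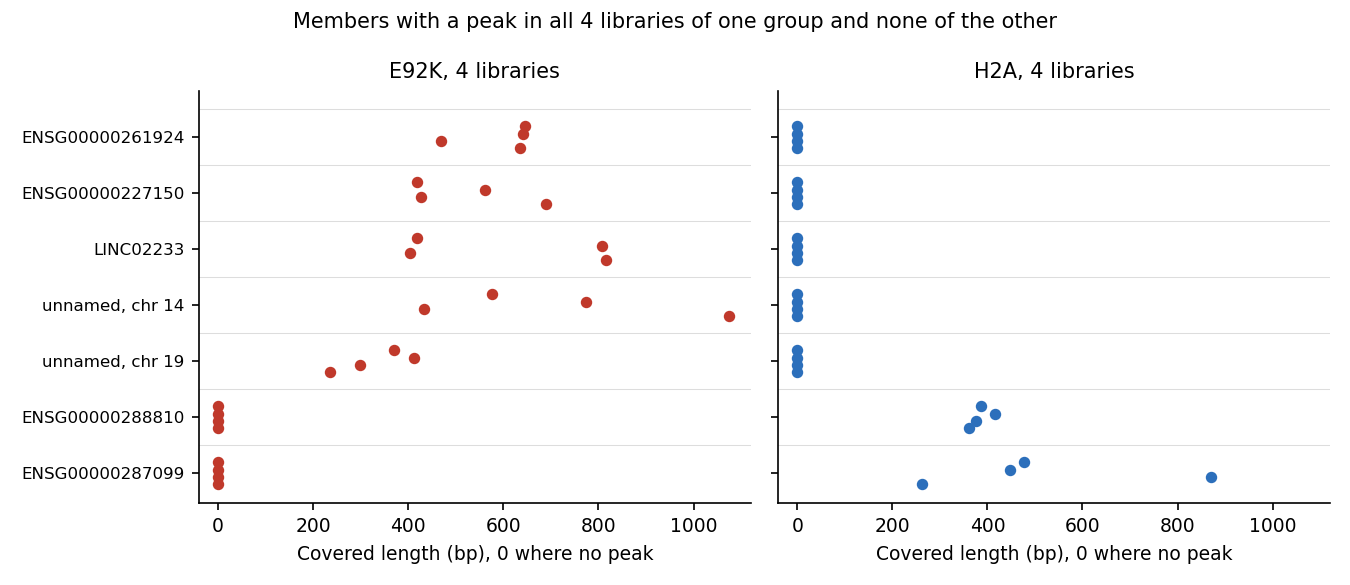
Covered length in bp (horizontal axis, 0 where the library had no peak) of 7 of the 8 members that separate the groups completely, 1 row per member and 1 point per library, with E92K libraries on the left and H2A libraries on the right. The 5 upper members have points from 236 to 1075 bp in E92K libraries and 0 in every H2A library, and the 2 lower members have the reverse, from 263 to 870 bp in H2A libraries.

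A further 21 members had 3 more E92K than H2A libraries with a peak (1.02% of all regions did) and 30 had 3 more H2A than E92K libraries (1.19%). Toward E92K, IATPR was covered over 257, 427, 268 and 410 bp in E92K libraries, against 417 bp in H2A replicate 4 and no peak in the other H2A libraries. LINC00482 was covered over 359, 281, 474 and 476 bp in E92K libraries and over 252 bp in H2A replicate 3. PRNT, in the prion gene cluster, was covered over 298, 488, 291 and 318 bp in E92K libraries and over 460 bp in H2A replicate 1. For all of these the H2A library that had a peak covered a length near or within the E92K range. HEIH was covered over 286, 602, 442 and 306 bp in E92K libraries and over 415 bp in H2A replicate 4. Toward H2A, LINC00564 had no peak in E92K libraries and 318, 241 and 395 bp in H2A replicates 2, 3 and 4, and LINC01002 had none in E92K libraries and 243, 278 and 253 bp in H2A replicates 1, 2 and 3.

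At the members open in all 8 libraries, covered length did not separate the groups after adjustment. It was compared as log2 of the covered base pairs, centred on each library's median, with limma over all 36895 regions present in all 8 libraries. With Benjamini-Hochberg adjustment at 0.05, 0 of 1417 members were longer in E92K and 0 shorter, where 0.00271% and 0% of all regions were called. At an unadjusted p under 0.05 there were 90 members (6.35%), 40 longer and 50 shorter, beside 6.58% of all regions. The median log2 difference, E92K minus H2A, was -0.01 over the members and -0.01 over all regions, and the 95% interval of a member reached a median of 0.29 to either side. Without a test, 17 members (1.20%) were longer in every E92K library than in any H2A library, beside 1.23% of all regions, and 41 (2.89%) were shorter in every one, beside 2.82%.

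The 5 members with the smallest p in that fit were named after their values were seen, and 4 of them were shorter in E92K libraries. ENSG00000227486 (chrX:55908032-55909307) had the smallest p, with 534, 472, 700 and 391 bp in E92K libraries and 907, 971, 1078 and 1046 bp in H2A libraries. Its log2 difference of -0.95 (SE 0.17) had an adjusted p of 0.370 in limma. SNHG7, a snoRNA host gene (chr9:136727782-136729105), was covered over 911, 990, 817 and 650 bp in E92K libraries, against 1212, 1142, 1239 and 1171 bp in H2A libraries. The groups did not overlap, and the log2 difference of -0.50 (SE 0.10) had an adjusted p of 0.407 in limma. Its summits had 78, 82, 69 and 70 fragments in E92K libraries and 64, 71, 93 and 95 in H2A libraries, with overlap. PPIEL (chr1:39559195-39560447) was covered over 776, 871, 682 and 584 bp in E92K libraries and 890, 995, 1180 and 1214 bp in H2A libraries, a log2 difference of -0.54 (SE 0.13) with an adjusted p of 0.480 in limma. LINC02846 (chr9:136109286-136110929) went the other way, with 1507, 1630, 1523 and 1326 bp in E92K libraries and 995, 1173, 1301 and 1157 bp in H2A libraries, a log2 difference of 0.39 (SE 0.08) and an adjusted p of 0.423 in limma. ENSG00000254710 (chr11:123187536-123189097) was covered over 841, 729, 868 and 820 bp in E92K libraries and 1090, 1044, 1091 and 1043 bp in H2A libraries, a log2 difference of -0.38 (SE 0.09) with an adjusted p of 0.480 in limma. In all 5 the groups did not overlap, which largely follows from picking them by p on the same lengths. None of the 5 passed the test.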

How the data were processed

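Each of the 8 samples had 1 headerless peak list in narrowPeak layout, called per sample. The genome build was hg38, per the labels. For the read aligner, the caller, the Tn5 offset and duplicate removal, nothing is given in the sources used, and each can change peak widths and numbers. The deposited score is a whole number per peak. The deposited fold is a ratio over local background, and the deposited p-value and q-value are on a −log10 scale. These are the authors' own values per peak and served to describe, rank or filter peaks of the same list only.

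A peak was a distinct interval, represented by its summit of smallest p. Peaks that overlapped or touched were merged, and a library had a region if at least 1 bp was covered. Whole-number fragment counts at summits were recovered from fold and p, within 0.001 of the −log10 p, for at least 99.84% of summits per list. Read totals were not analysed here. Genes and TSSs came from GENCODE version 44, with coding TSSs from basic protein-coding transcripts and lncRNA TSSs from the 5′ ends of genes.

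Presence was compared by Fisher's exact test over all regions, and covered length by limma 3.58.1 in R 4.3.3, each with Benjamini-Hochberg adjustment. Both were tested on simulated data. Python 3.11.15 and pandas 2.3.3 did the rest. The members and the gene lists were chosen with earlier results of these data known, and the CpG-rich threshold after the files were read. Named members were those that separated the groups, those that differed by 3 libraries (5 per direction), extremes of percentile, width and GC among members in all 8 libraries, and list genes, with at most 2 bare identifiers per direction. Some named members are not reported here. Alternatives changed both distances, the transcripts used, the q-value limit, list length, merging, covered share, centring, the replicate block and each library in turn.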

Additional observations from a re-analysis of the deposited data

Results flagged for a closer look

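Of 56 groups of 4 libraries examined, 5 held a value far from the other 3, by a gap above Dixon's 95% critical value. Chance flags about 1 in 20 groups. The median covered length per member was 719 bp in E92K replicate 2, which had the most peaks of its group, against 703 to 705 bp in the other E92K libraries. The remaining 4 are deposited folds at a summit. ENSG00000288810, seen in H2A libraries alone, had a fold of 7.36 in H2A replicate 4, and ENSG00000287099, likewise, had 2.95 in H2A replicate 3. PCGF3-AS1 had a fold of 10.25 in E92K replicate 3. ENSG00000288872 had a fold of 10.00 in 1 H2A library. No cause of these values was tested.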

How the results depend on the processing

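The number of members ran from 1823 (lncRNA TSS within 500 bp) to 3527 (within 2000 bp). The share open in all 8 libraries was 60.8% and 50.3% at these windows, 54.7% with every lncRNA transcript, 63.9% at a q-value of 1e-05 or less, 59.2% with equal list lengths and 44.6% with at least 50% of the region covered. The median width was 835 bp at 500 bp, 736 bp at 2000 bp, 776 bp with every lncRNA transcript, 896 bp at the stricter q-value and 836.5 bp with equal lists. The median GC was 54.0% at 500 bp, 51.9% at 2000 bp, 52.8% beyond 5000 bp from coding TSSs, 53% with every coding transcript, 52.2% with every lncRNA transcript, 54.7% at the stricter q-value and 53.8% with equal lists. Part of this follows from construction, since a stricter q-value drops weak peaks and a wider window adds regions far from the TSS. Members present in E92K libraries alone were 1 at 500 bp, and those in H2A libraries alone were 4 at 50% coverage. Of the 8 separating members, 2 still separated the groups at the stricter q-value, 6 with equal lists and 3 at 50% coverage. With 1 library left out, the criterion is relaxed to 3 libraries against 4 and the counts cannot fall; they were 6 to 10 for E92K and 3 to 10 for H2A, the highest without E92K replicate 1 and without H2A replicate 3. The difference in members with a peak per library, E92K minus H2A, was -18.25 and ranged from -46.25 without E92K replicate 2 to 3.42 without E92K replicate 4. With equal lists it was 4.25, so its sign depends on list length and on that library. The limma fit called 0 members under every alternative run. Fisher's test also called 0, but its smallest p of 0.0286 cannot pass the adjustment with so few separating regions, so this says nothing about stability.

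Replicate numbers were also entered as a block. The limma fit then called 0 members in either direction, with 84 at an unadjusted p under 0.05, and the mean same-numbered difference in members with a peak was -18.25, which equals the unpaired difference by arithmetic. Same-numbered libraries did not deviate together in covered length (correlations -0.049, -0.023, 0 and -0.026). Covered length may carry no trace of a shared culture or processing, so whether the numbers pair the samples remains unknown. Peak lists limit what can be seen, since weak peaks of shallower libraries are missing and read totals are unknown.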
